A study of Arabidopsis thaliana with 24 samples.

Results

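The shoots of wild type Arabidopsis thaliana, of the Columbia background, were compared between plants grown without and with inorganic phosphate (Pi). Of the 24 arrays of the series, 6 belonged to this comparison, chosen by their titles: 3 from Pi-starved shoots and 3 from shoots of plants fed with Pi. All plants were grown for 7 days on solid Johnson medium containing 2% sucrose, with 2 mM KH2PO4 in the complete medium (+Pi) and none in the Pi-lacking medium (-Pi). The 3 samples of a group were independent biological replicates, and shoots and roots of the plants were harvested apart. RNA was hybridised to Affymetrix ATH1 arrays, which give 1 signal per probe set, a group of short oligonucleotides designed against 1 transcript, and 22746 probe sets other than controls were tested. Signals are log2 values made by RMA (robust multi-array averaging), so that a difference of 1 is a 2-fold change.

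Pi is taken up by roots and exported to the shoot, where it is needed for nucleic acids, membrane phospholipids and the sugar phosphates of photosynthesis. Plants short of Pi are known to replace part of their phospholipids with lipids that lack phosphorus, to recycle Pi from internal stores, to accumulate starch and the red-purple anthocyanin pigments in the leaves, and to reduce shoot growth. MYB transcription factors of the PHR1 type and proteins with an SPX domain control much of this programme. The results below describe which genes carried the change in shoots, how far they changed in every array, and where the shoot response departed from that of wild type roots.

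The organ labels were checked with marker genes. Of the 10 shoot markers listed, 1 was matched, RCA, the activase of Rubisco, with a mean signal of 12.68 in +Pi shoots and 6.94 in +Pi roots. The 4 root markers that could be matched of the 16 listed had a mean signal of 5.82, 6.47 and 5.70 in the +Pi shoot arrays, of 7.14, 7.11 and 6.11 in the -Pi shoot arrays and of 8.68 to 10.03 in the root arrays. PYK10, a beta-glucosidase abundant in roots, lay at 11.17 ± 0.42 (SD, n = 3) in +Pi shoots, and the root hair expansin gene EXPA7 lay between 3.58 and 4.75 in the shoot arrays. PYK10 had a log2 fold change of 0.58 in Pi-starved shoots (adjusted p = 0.0208 from limma) with overlapping groups, and did not pass without +Pi replicate 1 (0.37) or 3 (0.57) or without -Pi replicate 1 (0.42) or 3 (0.47), while EXPA7 (0.52), EXPA18 (0.41) and the peroxidase gene AT4G26010 (1.66, adjusted p = 0.0563) did not pass the test. AT4G26010 had 7.03 and 7.19 in -Pi shoot replicates 1 and 2 against 4.53 in replicate 3, and 5.78 in +Pi replicate 2 against 4.03 and 3.96. Without -Pi replicate 3, AT4G26010 (2.52) and EXPA7 (0.81) passed, as did AT4G26010 without +Pi replicate 2 (2.26). The part of root RNA in the results below was not tested.

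Among the shoot arrays, replicate 2 of each group stood apart. The mean correlation with the other arrays of its group was 0.969 for -Pi replicate 2 and 0.979 for +Pi replicate 2, against 0.979 to 0.986 for the other shoot arrays of the comparison, and limma's array weights were 0.203 and 0.369 for these arrays, against 0.948 to 2.62 for the others. Among the upregulated probe sets, +Pi replicate 2 was the highest of the 3 +Pi arrays in 59.2%, and among the downregulated, -Pi replicate 2 was the lowest of the 3 -Pi arrays in 58%. With 3 arrays per group, the number of arrays limits the precision of each value.

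With a change of over 2-fold and an adjusted p from limma under 0.05, 1879 probe sets were upregulated and 1809 downregulated in Pi-starved shoots, 8.26% and 7.95% of those tested. In such whole shoots, fewer cells of a type and less RNA per cell cannot be told apart. With each array centred on its median, which was 5.12 in -Pi replicate 2 and 5.29 to 5.31 in the other 5, the counts were 2017 and 1632. The larger changes were mostly rises. More than 4-fold changes were found for 658 upregulated and 224 downregulated probe sets, more than 8-fold changes for 248 and 36, more than 16-fold changes for 125 and 14, and more than 32-fold changes for 45 and 1. The median log2 fold change over all probe sets was -0.042. Without a limit on the fold, 15.9% of all probe sets were higher and 21.1% lower at the adjusted p alone, so small falls outnumbered small rises. Counts of list members below use that same threshold, so these are the shares to read them beside. In 17.9% of all probe sets the 3 -Pi arrays all lay above the 3 +Pi arrays, and in 25.2% they all lay below.

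**Figure D1:**
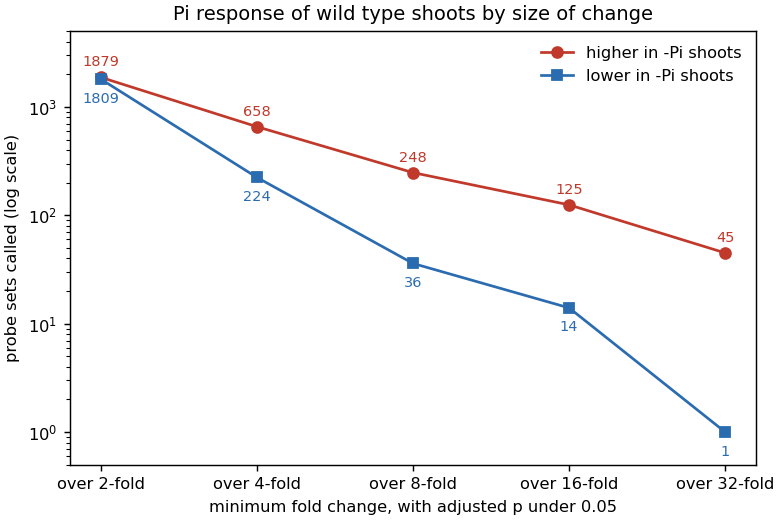
Number of probe sets called higher (circles) or lower (squares) in Pi-starved wild type shoots, on a log scale, at increasing minimum fold change with an adjusted p under 0.05. The 2 lines start together at 1879 and 1809 and end at 45 and 1.

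The rises and the falls also started from different levels. In +Pi shoots, the median signal was 5.53 for upregulated and 7.40 for downregulated probe sets, against 5.31 for all. Of those induced more than 16-fold, 72.8% had a mean signal under log2 5 in +Pi shoots, against 46.1% of all probe sets, and their median went from 4.30 to 9.41. Most of the largest inductions thus began at low signals, where RMA values understate fold changes. A large fall needs a start well above the lowest signals, and a large rise a start well below the highest. These levels therefore follow in part from how the sets were chosen. Under log2 5 in every +Pi array and over log2 8 in every -Pi array were 40 probe sets, whereas 2 showed the reverse. Of the 22746 probe sets, 13513 were matched to a single gene and can be named, but only 3 of the 12 largest rises and 6 of the 12 largest falls of all were among them.

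The largest named rise was that of AT5G17340, for which the tables used here give no function. Its signal was 3.29, 3.18 and 3.34 in the +Pi arrays and 10.70, 10.98 and 10.47 in the -Pi arrays, a rise of 7.45 log2 units (standard error 0.165, adjusted p = 5.49e-17). AT5G20790, also without a given function, had 3.93, 3.82 and 3.86 with Pi and 11.09, 10.61 and 10.93 without (log2 fold change 7.00, standard error 0.217). In both genes every starved array lay more than 6 log2 units above every fed one. OCT1 (AT1G73220), an organic cation and carnitine transporter gene, rose from 3.27, 3.36 and 3.39 to 9.81, 10.06 and 10.18 (6.67, standard error 0.252), and AT5G09570 from 3.86, 4.51 and 4.03 to 10.10, 10.52 and 10.17 (6.13, standard error 0.350). AT1G08310, which encodes a hydrolase of the alpha/beta fold, rose from 3.45, 3.36 and 3.51 to 9.56, 8.75 and 9.34, with -Pi replicate 2 the lowest of the starved arrays.

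Another set of large rises had an uneven +Pi group. DFR (AT5G42800), which encodes dihydroflavonol reductase, the enzyme that commits flavonoids to the anthocyanin branch, had 3.46, 5.99 and 3.41 in the +Pi arrays and 10.32, 9.70 and 10.38 in the -Pi arrays, a rise of 5.85 (standard error 0.459, adjusted p = 5.77e-09). AT4G17470 had 3.83, 6.02 and 4.55 with Pi and 10.58, 9.06 and 10.53 without (5.25, standard error 0.401). In both genes +Pi replicate 2 was the highest of the fed arrays and -Pi replicate 2 the lowest of the starved ones, but the groups remained more than 3 log2 units apart. Without +Pi replicate 2 the log2 fold changes were 6.70 and 5.86. The jasmonate oxidase gene JRG21 (AT3G55970) had 3.37, 3.94 and 3.21 with Pi and 8.79, 9.06 and 9.10 without (5.48, standard error 0.291). AT4G02360 (5.77), the GDSL lipase family gene AT1G54020 (5.36), the anthocyanin glucosyltransferase gene AT4G14090 (5.30) and the dehydrogenase family gene AT1G64590 (5.18) completed the 12 largest named rises. Over these 12 genes no +Pi array exceeded 6.02 and no -Pi array fell under 8.63.

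**Figure D2:**
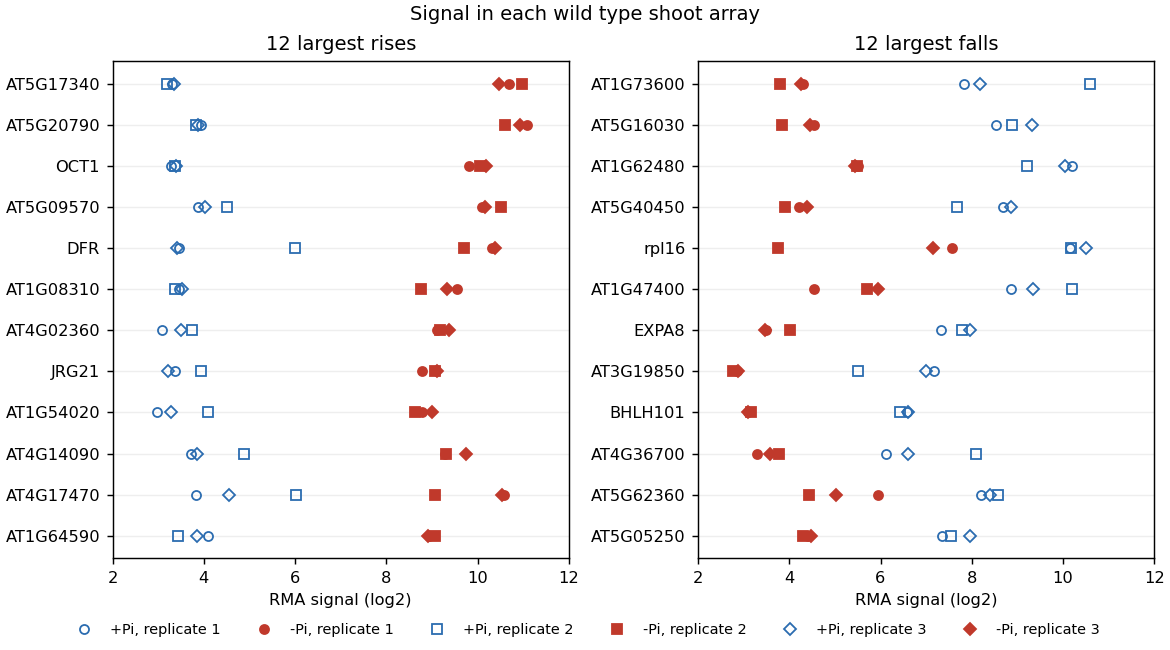
RMA signal (log2) of the 12 genes with the largest named rises (left) and falls (right) in each wild type shoot array, open symbols for +Pi and filled symbols for -Pi, with 1 symbol shape per replicate. The groups are fully apart for every gene, the +Pi arrays being tight for AT5G17340, AT5G20790 and OCT1 and spread for DFR and AT1G73600.

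Of the best known groups, none of 13 Pi transporter genes and none of 21 phosphatase and nuclease genes listed had a probe set matched to 1 gene, so these were not analysed here. Of 19 genes listed for Pi signalling 5 were matched, and these had small changes. The rest, SPX1, IPS1 and PHR1 among them, were not analysed here. AT1G63010, which encodes an SPX domain protein of the vacuolar Pi transporter family, had 8.33, 8.69 and 8.34 with Pi and 9.39, 9.41 and 9.48 without (log2 fold change 0.97, adjusted p = 4.74e-06). The SPX-EXS gene AT1G69480 rose by 0.64 at a low signal, from a mean of 3.31 to 3.95. LPR2, a multicopper oxidase whose paralogue acts in the growth arrest of Pi-starved root tips, was called higher by 1.17 (adjusted p = 0.00855), but its groups overlapped, +Pi replicate 2 having 8.18 against 6.42 and 6.53 in the other fed arrays and 7.87 to 8.40 in the starved ones. The call was lost without +Pi replicate 1 (0.86) or 3 (0.91). LPR1 (-0.16) and the SUMO ligase gene SIZ1 (-0.02) did not pass the test, with adjusted p of 0.735 and 0.942. Of the 5 measured genes of this list 3 were higher and none lower, with a median of 0.64.

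Of 27 genes listed for membrane lipid remodelling only 2 were measured. Both were phosphoethanolamine N-methyltransferases of phospholipid head group synthesis, and their values had opposite signs. AT1G73600 had the largest named fall of all, from 7.83, 10.59 and 8.18 to 4.30, 3.80 and 4.26 (log2 fold change -4.75, standard error 0.440, adjusted p = 5.32e-08). Every starved array lay more than 3 log2 units under every fed one. Its rank depended on +Pi replicate 2, without which it was -3.89, a smaller fall than those of AT5G16030 (-4.64), AT1G62480 (-4.64) and AT5G40450 (-4.61) in the same fit. PMEAMT, by contrast, had 9.22, 9.97 and 9.40 with Pi and 10.50, 9.44 and 10.45 without, so that its groups overlapped. Its log2 fold change of 0.60 had an adjusted p of 0.0432 and was lost without +Pi replicate 1 (0.44) or 3 (0.53) or without -Pi replicate 1 (0.41) or 3 (0.44), while it was 0.94 without -Pi replicate 2.

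All 5 measured genes of flavonoid and anthocyanin synthesis, of 23 listed, were higher in Pi-starved shoots. Their median log2 fold change was 5.04, against -0.042 over all probe sets, and lay between 4.67 and 5.66 with any 1 shoot array left out. Besides DFR and AT4G14090 these were UF3GT (AT5G54060), a flavonoid glycosyltransferase gene (5.04, standard error 0.383), AT5MAT (AT3G29590), which encodes the malonyltransferase that decorates anthocyanins (3.77), and UGT78D2, which glucosylates flavonols and anthocyanidins (3.37). UF3GT had 4.21, 6.23 and 4.42 with Pi and 9.87, 9.72 and 10.39 without, and UGT78D2 had 6.74, 7.62 and 6.20 against 10.06, 10.20 and 10.39. In AT5MAT the fed arrays read 3.28, 4.18 and 3.52 and the starved arrays 7.19, 6.98 and 8.13. In all 5 genes +Pi replicate 2 was the highest fed array and the groups did not overlap. The log2 fold change of UF3GT was 5.68 without that array.

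UDP glycosyltransferases, a large family that attaches sugars to hormones, flavonoids, phenylpropanoids and other small molecules had 47 measured members. Of these 20 were higher and 4 lower at the adjusted p, or 42.6% and 8.51% against 15.9% and 21.1% of all probe sets, with a median log2 fold change of 0.26. UGT76E12 (AT3G46660) went from 3.07, 3.15 and 3.23 to 7.95, 8.02 and 8.01, with less than 0.2 between the arrays of a group (4.84, standard error 0.165, adjusted p = 2.53e-14). UGT84A3, whose product glucosylates hydroxycinnamates, rose by 2.93 from 4.92, 7.03 and 4.85 to 8.36, 8.87 and 8.35, or by 3.64 without +Pi replicate 2. UGT71C1 (2.57), UGT73C1 (2.18), UGT72E2 of the monolignol-glucosylating group (2.11) and UGT78D1 of flavonol rhamnosylation (2.07) also rose. The 4 members that fell were UGT85A4 (-1.98), UGT76C2, a cytokinin glucosyltransferase (-1.46), UGT71C5 (-0.47) and UGT73C2 (-0.31). The smallest of these falls were not called without 1 of several arrays, UGT71C5 without +Pi replicate 1 (-0.38) or 3 (-0.41) or -Pi replicate 3 (-0.41), and UGT73C2 without +Pi replicate 3 (-0.25) or -Pi replicate 1 or 2 (-0.30 each). CCR2, a cinnamoyl-CoA reductase of the lignin pathway, rose from 3.41, 3.56 and 3.41 to 5.87, 6.37 and 6.23 (2.70, standard error 0.334), and HCT of the same pathway had a log2 fold change of 0.13 that did not pass.

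Of 37 genes listed for jasmonate synthesis, turnover and response only 7 were measured, so most of this list was not read. Of these 7, 5 were higher, 1 was lower and the median was 2.22. Jasmonates are lipid-derived hormones of wounding and defence. The members that rose included both synthesis and removal: OPCL1, a CoA ligase of jasmonate synthesis (2.22), JMT, which methylates jasmonic acid (4.27), and JRG21, AT5G05600 (3.79) and AT2G38240 (1.42), which belong to the family of jasmonate oxidases. JMT had 2.86, 3.43 and 3.13 with Pi and 7.64, 6.80 and 7.80 without, a gap of more than 3 log2 units. AT5G05600 had 5.89, 7.10 and 6.41 against 10.38, 10.19 and 10.20. AT3G11180 of the same oxidase family, with means of 3.02 in fed and 3.15 in starved shoots, did not pass (0.13, adjusted p = 0.366). PDF1.2, a defensin gene used as a marker of the joint jasmonate and ethylene response, fell from 5.65, 6.90 and 6.35 to 4.02, 4.36 and 4.12 (-2.13, standard error 0.195, adjusted p = 4.53e-08), and PDF1.2b followed it (-2.01). Among 17 measured defensin and thionin symbols, these included, 4 were higher and 4 lower, or 23.5% each way, near the shares of all probe sets. LCR68, a defensin-like gene, rose from 9.88, 9.93 and 9.79 to 12.09, 12.34 and 12.06, and PDF2.5 (2.2), THI2.1 (1.23) and PDF2.1 (1.15) were also higher. PDF2.1, whose adjusted p was 0.048, was lost without replicate 1 or 2 of either group (0.73 to 1.31). The remaining pair of falls, PDF1A (-1.05) and PDF1B (-0.87), share only the prefix of the name, since they encode peptide deformylases.

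Genes of water deficit and cold rose less evenly. COR15A, which encodes a chloroplast-targeted protein that protects membranes during freezing, had 5.31, 6.86 and 4.45 with Pi and 10.27, 9.95 and 10.05 without (4.55, standard error 0.375, or 5.21 with +Pi replicate 2 left out). The dehydrin gene LTI30 rose by 2.85, and HIS1-3, a linker histone gene of drought, rose by 2.35 from 4.30, 3.25 and 4.43 to 6.47, 5.84 and 6.73. COR47, another dehydrin gene, had a log2 fold change of -1.06 that did not pass (adjusted p = 0.0705). Thus 3 of 4 measured members, of 28 listed, were higher and the median was 2.60.

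Of 5 measured sugar transport genes, of 11 listed, 3 were higher and 1 lower (median 0.91). Of 6 measured genes of starch metabolism, of 25 listed, 2 were higher and 1 lower (median 0.24). SWEET4, a sugar facilitator gene, was at 3.78, 3.96 and 3.77 in fed shoots and at 7.77, 8.55 and 7.69 in starved ones (4.17, standard error 0.248, adjusted p = 1.12e-10). The tonoplast monosaccharide transporters moved apart from each other, TMT2 rising by 1.79 with groups that did not overlap and TMT1 falling by 0.83 with groups that did. The fall of TMT1 was not called without +Pi replicate 1 (-0.73) or 3 (-0.64) or -Pi replicate 3 (-0.58). SWEET17, a fructose facilitator of the tonoplast, was called higher by 0.91, with +Pi replicate 2 at 8.22 inside the range of the starved arrays. It was not called in a fit of only the 6 arrays compared (adjusted p = 0.109). SWEET11, a sucrose exporter of the phloem loading pathway, had -0.12 and did not pass. In starch metabolism, both measured genes for large subunits of ADP-glucose pyrophosphorylase, the first committed enzyme of starch synthesis, rose. APL3 went from 5.38, 7.15 and 5.69 to 9.99, 8.98 and 10.05 (3.60) and APL4 from 3.42, 4.54 and 3.51 to 6.95, 5.24 and 7.29 (2.67), with replicate 2 highest with Pi and lowest without Pi in each gene. APL4 was higher by 3.30 without -Pi replicate 2. DPE1, a disproportionating enzyme of starch breakdown, fell by 0.74, and PWD, SBE2.2 and AMY1 did not pass. Of 17 genes listed for routes that bypass Pi-dependent steps of glycolysis and respiration 3 were measured. NDB2, an external NADH dehydrogenase of mitochondria (2.26), and ALDH11A3, a non-phosphorylating glyceraldehyde phosphate dehydrogenase (1.28), rose, and NDB4 (-0.01) did not pass.

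All 3 measured gibberellin receptor genes were higher: GID1B went from 5.19, 5.07 and 5.21 to 7.93, 8.27 and 8.06 (2.93, standard error 0.165, adjusted p = 5.10e-11), GID1A rose by 1.72 and GID1C by 0.75, each with groups that did not overlap. Of 20 genes listed for cytokinin only 2 were measured, both response regulators, and both were lower. RR16 fell from 6.61, 4.41 and 6.33 to 3.36, 3.21 and 3.29 (-2.50, or -3.18 without +Pi replicate 2, the lowest fed array), and ARR15 fell by 0.67. Among 11 auxin response genes only GH3.17 (1.26) was higher and only IAA29 (-0.34) lower, 9.09% in each direction, against 15.9% and 21.1% of all probe sets. IAA29 was not called without +Pi replicate 3 (-0.16) or without any 1 -Pi replicate (-0.37 to -0.31).

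Genes of stress signalling and redox control rose in part. Of 7 calmodulin-like genes, which encode calcium sensors, CML38 (2.93), CML41 (1.81), CML23 (1.69) and CML43 (1.66) were higher and CML30 (-0.80) lower, the last not being called in a fit of only the 6 arrays compared (adjusted p = 0.0563). GRX480, a glutaredoxin gene of salicylate and jasmonate crosstalk, went from 4.79, 4.49 and 4.82 to 7.72, 7.68 and 7.71 (3.0, standard error 0.221), and GRXC1 and GRXC2 rose by 0.69 each (GRXC1 by 0.54, not called, without +Pi replicate 2), whereas ROXY1 and ROXY2, which act in flowers, did not pass. In the glutathione S-transferase family 4 of 14 measured members were higher, led by GSTU16 (1.92), and 1 was lower, with 2 higher without -Pi replicate 1 and none lower without -Pi replicate 2. Among 10 autophagy genes, 9 of them for ATG8, the ubiquitin-like protein that is attached to autophagosome membranes, 8 were higher, most of them modestly. ATG8H rose from 5.36, 5.56 and 5.54 to 7.61, 6.43 and 7.55 (1.71), and ATG8E, which fell by 1.29, had groups that overlapped and was not called in that fit (adjusted p = 0.0789). This count depended on replicate 2, since 4 members were higher without +Pi replicate 2 and 5 without -Pi replicate 2.

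**Figure D3:**
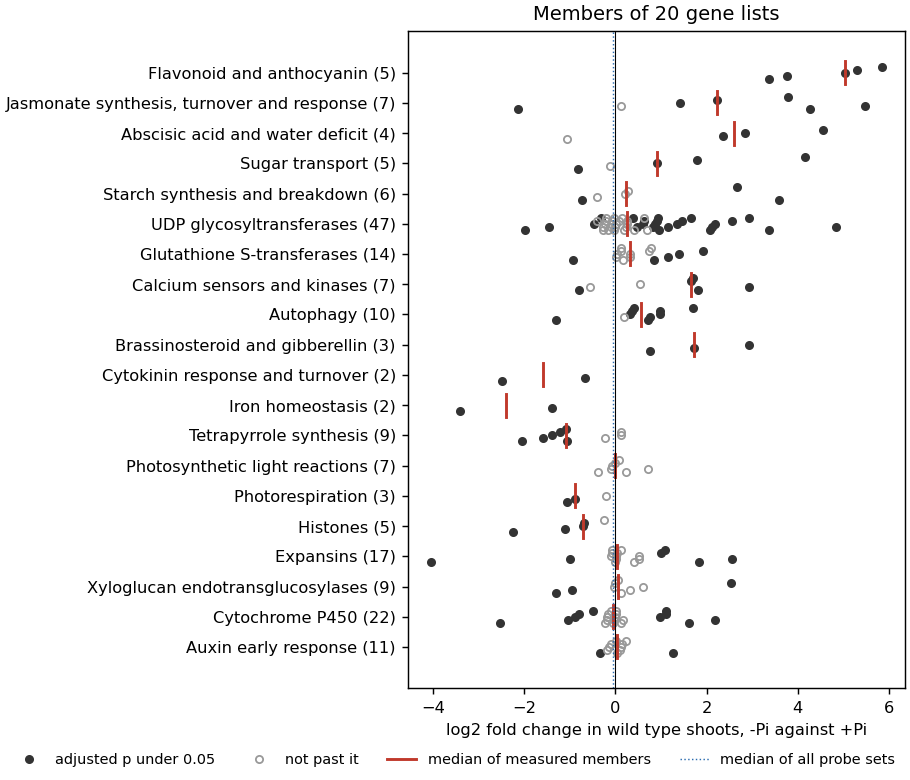
Log2 fold change in Pi-starved against Pi-fed wild type shoots of each measured member of 20 gene lists (number of members in brackets), filled where the adjusted p was under 0.05, with the list median as a red bar and the median of all probe sets, -0.042, as a dotted line. The flavonoid members lie between 3.37 and 5.85, the 7 measured light reaction members of 36 listed lie around 0, and the tetrapyrrole and histone members that passed lie below 0.

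Genes of the iron deficiency response were among the falls. BHLH101 (AT5G04150), a transcription factor gene induced by iron deficiency, went from 6.58, 6.42 and 6.61 to 3.10, 3.16 and 3.10 (log2 fold change -3.42, standard error 0.246, adjusted p = 1.69e-09). PYE, which encodes another basic helix-loop-helix regulator of iron deficiency, had 5.60, 5.81 and 5.74 with Pi and 4.08, 4.35 and 4.58 without (-1.38). These were the only 2 measured of 24 genes on the iron list, so most of it was not read. AT1G47400, which encodes a small peptide of the IRONMAN family, stood at 8.87, 10.19 and 9.35 in fed and at 4.55, 5.70 and 5.95 in starved shoots (-4.07, standard error 0.410). All 3 genes had groups that did not overlap. CCS, the copper chaperone of superoxide dismutase, fell by 1.17 (adjusted p = 3.53e-08).

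The other large named falls were of mixed function. AT5G16030 was over 8 in every fed array (8.53, 8.89 and 9.33) and under 5 in every starved one (4.54, 3.85 and 4.46), the only named gene with that pattern (-4.63). AT1G62480 fell from 10.20, 9.22 and 10.04 to 5.51, 5.49 and 5.44 (-4.34, standard error 0.277), and AT5G40450 from 8.68, 7.67 and 8.87 to 4.21, 3.91 and 4.38 (-4.24, standard error 0.624). Both had starved arrays within 1 log2 unit of each other. EXPA8 (AT2G40610), an expansin gene of cell wall loosening, fell from 7.32, 7.79 and 7.97 to 3.48, 4.01 and 3.46 (-4.04, standard error 0.383). AT3G19850 (-3.73), AT4G36700 (-3.39), AT5G62360 (-3.25) and AT5G05250 (-3.22) followed, and over the 12 largest named falls 7 had -Pi replicate 2 as the lowest starved array.

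Of 27 genes listed for tetrapyrrole synthesis, the pathway to chlorophyll and heme, only 9 were measured, so most of the pathway was not read. Of these 9, 6 were lower and none higher (median -1.09), or 66.7% lower against 21.1% of all probe sets. The count of lower members was 6 or 7 with any 1 shoot array left out. CHLI2, a subunit of magnesium chelatase, had 8.19, 8.43 and 8.34 with Pi and 6.48, 5.79 and 6.54 without (-2.05, standard error 0.215). HEMB1 of the porphobilinogen step fell by 1.59, the uroporphyrinogen decarboxylase genes HEME1 and HEME2 by 1.40 and 1.21, the methyltransferase gene CHLM by 1.09 and GSA1 of aminolevulinate synthesis by 1.07, each with groups that did not overlap. HEMA2 (-0.24), PORB (0.12) and the geranylgeranyl reductase gene AT1G74470 (0.13), which act at the entry and near the end of the pathway, did not pass. Of 36 listed nuclear genes of the light reactions only 7 were measured, so most of this class was not read. Of these 7, 0 passed limma's adjusted p of 0.05 and 1 had an unadjusted p under 0.05. Their median was -0.01, with values from -0.38 for ATPC1 to 0.71 for LHCB4.2. LHCB4.1, an antenna protein gene, had 12.32, 12.48 and 12.42 with Pi and 12.24, 12.45 and 12.32 without. Of 19 listed Calvin cycle genes 3 were measured. SBPASE fell by 1.05 (11.20, 11.36 and 11.13 with Pi, 10.27, 9.96 and 10.32 without) while PRK and RCA did not pass. Of 3 measured photorespiratory genes, of 15 listed, AT1G11860, of the glycine cleavage system, fell by 1.07 and the glycerate kinase gene AT1G80380 by 0.89. Of other metabolic genes, ICL, the isocitrate lyase of the glyoxylate cycle, rose by 2.00 and MCCA of leucine breakdown fell by 1.67 (log2 fold change -2.29 without +Pi replicate 2). Of 3 measured glucosinolate genes, of 25 listed, BCAT4 (1.88) and UGT74B1 (1.36) rose and AT2G31790 (-0.07) did not pass.

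Of 5 measured core histone genes 4 were lower and none higher. The linker histone gene HIS1-3, which rose, was not in this list. HTB2, a histone H2B gene, fell from 7.72, 7.28 and 7.20 to 4.99, 5.15 and 5.34 (-2.24, standard error 0.251), HTB11 by 1.11, the centromeric histone gene HTR12 by 0.71 and HTB1 by 0.69. HTB4 (-0.25) did not pass. Among 17 expansins, EXPA8 and EXLA1 (-0.99, with overlapping groups) were lower, EXPA16 (2.55), EXPA9 (1.84), EXPB3 (1.1) and EXPA4 (1.0) were higher and the median was 0.03. That was 23.5% higher and 11.8% lower, against 15.9% and 21.1% of all probe sets. EXPB3 was not called in a fit of only the 6 arrays compared (adjusted p = 0.0524). EXPA16 had 6.86, 3.87 and 6.79 in the fed arrays, replicate 2 being the low one, and 8.59, 8.06 and 8.52 in the starved arrays, and its log2 fold change was 1.56 without +Pi replicate 2. The fall of EXLA1 was not called without +Pi replicate 2 (-0.71) or -Pi replicate 2 (-0.88) or 3 (-0.60), and was -1.49 without -Pi replicate 1. XTH19, a xyloglucan-modifying enzyme gene, rose by 2.54 and XTH16 (-1.29) and XTH33 (-0.95) fell, among 9 measured, or 11.1% higher and 22.2% lower, near the shares of all probe sets. Neither fall was called without +Pi replicate 1 (-1.14 and -0.84) or -Pi replicate 3 (-0.79 and -0.81), nor that of XTH16 without +Pi replicate 3 (-1.26). Of 7 cellulose synthase and cellulose synthase-like genes 4 were higher and 1 lower (median 0.39), with 2 higher without +Pi replicate 2 or -Pi replicate 1. CSLA01, a cellulose synthase-like gene of the glucomannan synthase family, rose from 3.16, 3.87 and 3.58 to 7.98, 6.85 and 7.61 (3.94, standard error 0.199, adjusted p = 1.05e-11), and CSLA03 of the same family fell by 1.1 with an adjusted p of 0.0401, which was lost in 5 of 6 leave-one-out fits (-1.23 to -0.78). Of 22 measured cytochrome P450 genes 5 were higher and 5 lower, 22.7% each way, near the 15.9% and 21.1% of all probe sets, with CYP71B22 falling by 2.53 and CYP71B26, whose groups overlapped, higher by 2.18. CYP71B26 was not called without +Pi replicate 1 (1.67) or 3 (1.62), and was 3.26 without +Pi replicate 2.

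Of 69 probe sets for chloroplast-encoded transcripts, 15 were lower in Pi-starved shoots and none higher by limma, nor at an unadjusted p under 0.05. The share of 21.7% lower was close to the 21.1% of all probe sets, while the median log2 fold change was -1.07 against -0.042, with 39 whose 3 starved arrays all lay under the fed ones. The ribosomal protein gene rpl16 read 10.15, 10.18 and 10.51 with Pi and 7.56, 3.75 and 7.14 without (-4.13, standard error 1.07, adjusted p = 0.00422), and psbA, for the D1 protein of photosystem II, 12.37, 12.40 and 12.71 with Pi and 10.44, 7.97 and 10.87 without (-2.73). These values depended on 1 array. Relative to the mean of the fed arrays, the median over the 69 probe sets was -0.50, -2.47 and -0.30 in -Pi replicates 1, 2 and 3. Without -Pi replicate 2 the median was -0.37, with 1 probe set lower and 1 higher, and without -Pi replicate 1 or 3 the counts of lower probe sets were 20 and 29. With -Pi replicate 2 left out, the log2 fold change of rpl16 was -2.93 (adjusted p = 0.0375). The large subunit of Rubisco, rbcL, had 9.98 and 9.74 in -Pi replicates 1 and 3 against 7.03 in replicate 2, and did not pass (0.51, adjusted p = 0.578). Whether the labelling reads transcripts of chloroplasts or mitochondria as it reads nuclear ones was not tested.

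Mitochondrion-encoded probe sets were picked by symbols that begin with nad, cox, ccb, matR or orfX, so others may be missing. Of these 23, 10 were higher and 1 lower in Pi-starved shoots (43.5% and 4.35%, against 15.9% and 21.1% of all). Their median was 0.48, and 10 were higher with any 1 shoot array left out. The maturase gene matR went from 3.90, 3.70 and 3.75 to 6.34, 5.94 and 6.59 (2.50, standard error 0.252, adjusted p = 1.58e-07). Genes of respiratory complex I and cytochrome oxidase were among the others: nad4L had 4.77, 4.71 and 4.87 with Pi and 6.37, 6.78 and 6.69 without (1.83), and cox2 5.74, 5.82 and 5.66 against 7.06, 7.54 and 7.39 (1.59). The gene of cytochrome c maturation ccb382 was the 1 that fell (-1.23), to 6.53, 5.37 and 6.71. In roots 0 of the 23 were higher (1 at an unadjusted p under 0.05) and 8 were lower at limma's adjusted p, and 41 of the 69 chloroplast-encoded probe sets were lower, where 6.55% of all probe sets were higher and 5.52% lower in roots at that threshold.

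**Figure D4:**
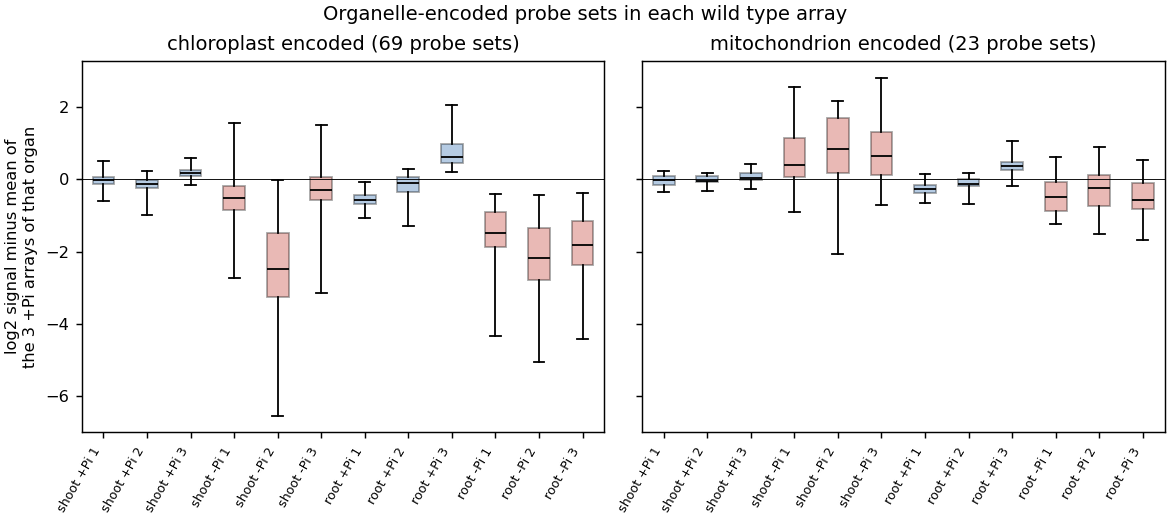
Log2 signal of each chloroplast-encoded (left, 69) and mitochondrion-encoded (right, 23 picked by symbol) probe set minus the mean of the 3 +Pi arrays of its organ, as boxes per wild type array (box, quartiles; line, median; whiskers, full range). In shoots the chloroplast-encoded probe sets drop furthest in -Pi replicate 2 (median -2.47), while the mitochondrion-encoded ones lie above 0 in all 3 -Pi arrays (medians 0.39, 0.83 and 0.66).

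The shoot response was next compared with that of wild type roots from the same treatments, which had their own 3 fed and 3 starved arrays. In roots, 694 probe sets were upregulated and 372 downregulated at the same thresholds (3.05% and 1.64%). Of the 1879 upregulated in shoots, 23.2% were also upregulated in roots, or 62.7% of those of roots. Of the 1809 downregulated in shoots, 5.36% were also downregulated in roots, or 26.1% of those of roots. The difference between the log2 fold changes of the organs exceeded 1 with an adjusted p under 0.05 for 2389 probe sets (10.5%), of which 1324 had the larger value in shoots (5.82%) and 1065 the smaller (4.68%). Among the upregulated in shoots the rise was larger in shoots for 1021 and larger in roots for 22, and among the downregulated the fall was larger in shoots for 814 and larger in roots for 4. Both sets were picked for a large change in shoots, which favours a larger change there, so these splits do not compare the organs evenly. Opposite calls were rare, with 13 probe sets up in shoots and down in roots and 4 the reverse.

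The largest inductions differed in what the same genes did in roots. Of the 125 probe sets induced more than 16-fold in shoots, 70 were also called higher in roots, while 42 had a root log2 fold change under 0.5 in size. Among the former were AT5G17340, with 7.45 in shoots and 6.81 in roots, AT5G20790, with 7.00 and 7.02, and AT1G08310, with 5.78 and 5.11, whose differences did not pass (adjusted p = 0.0653, 0.985 and 0.0848). OCT1 rose further in roots (8.02) than in shoots (6.67), a difference of -1.35 (adjusted p = 0.0106). Among the latter was DFR, at 3.04 in fed and 3.17 in starved roots, whose response differed by 5.72 (adjusted p = 4.81e-06). The differences of AT4G02360 (5.46), JRG21 (5.39), AT1G54020 (5.38), AT4G14090 (5.37) and AT4G17470 (5.16) were of similar size. UGT76E12, JMT, SWEET4 and CSLA01 had root log2 fold changes of 0.02, 0.09, 0.00 and 0.03, and each differed from its shoot value (adjusted p from 1.73e-08 for CSLA01 and 1.46e-07 for SWEET4 to 1.16e-09 for JMT and 7.75e-11 for UGT76E12). From DFR to CSLA01, these genes had a mean signal of at most 3.89 in roots with or without Pi.

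Among the falls, AT1G62480 was high in roots in both conditions. It had a mean of 9.95 in fed and 9.21 in starved roots, against 9.82 and 5.48 in shoots, a difference in response of -3.59 (adjusted p = 2.93e-06). AT5G16030 (-4.37), AT3G19850 (-3.67), AT3G06070 (-3.58), AT4G36700 (-3.44) and EXPA8 (-3.39), by contrast, had root means of 4.56 or less in both conditions. The histone genes HTB2 and HTB11 had root log2 fold changes of -0.33 and 0.17 and differed between the organs (adjusted p = 0.000679 and 7.02e-05). AT1G73600 fell in both, by 4.75 in shoots and 3.98 in roots, and the iron genes BHLH101 and AT1G47400 fell in roots too, by 1.28 and 2.2, less than in shoots (adjusted p of the difference = 0.000203 and 0.0284). Of 6 WRKY transcription factor genes, WRKY6 (0.85) and WRKY20 (0.64) were higher in shoots, while WRKY47 was lower in shoots (-0.68) and higher in roots (0.46).

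**Figure D5:**
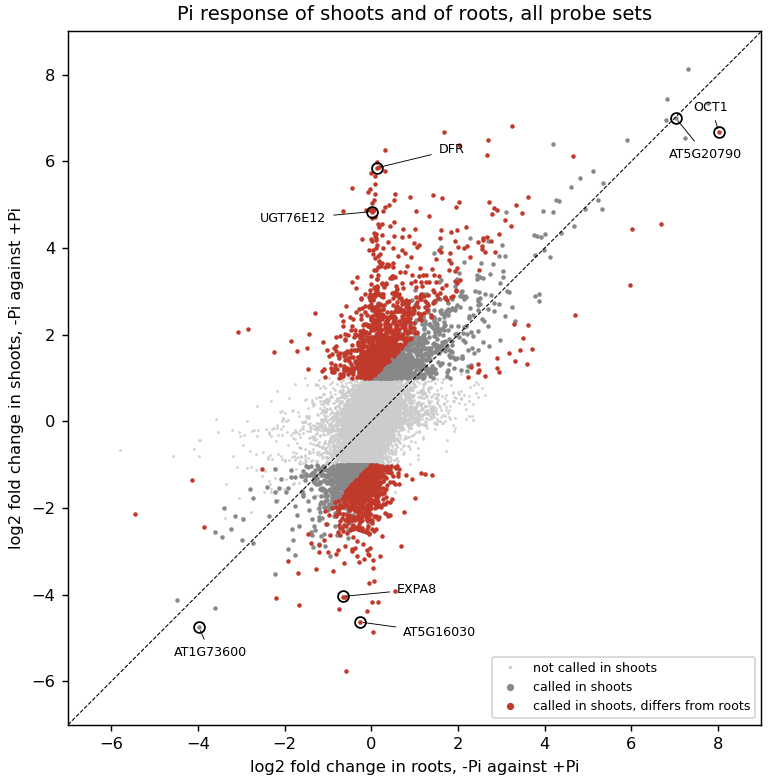
Log2 fold change of each of the 22746 probe sets in Pi-starved against Pi-fed wild type roots (horizontal) and shoots (vertical), with those called in shoots in grey, those whose response also differed between the organs in red, and equality as a dashed line. A band of rises in shoots stands at 0 for roots (DFR, UGT76E12), while AT5G20790 lies near equality and OCT1 to its right.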

How the data were processed

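The authors hybridised each RNA, extracted with RNeasy and labelled by the One-Cycle method, to an ATH1 array and deposited log2 values normalised by RMA, which sets all 24 arrays on 1 scale. Per the paper the replicates were independent and collected over about 2 months, and no harvest batch is given by the labels. From the deposited log2 values, the AFFX controls were dropped, and limma 3.58.1 in R 4.3.3 was fitted to all 24 arrays with 8 group means, empirical Bayes variances and Benjamini-Hochberg adjustment over 22746 probe sets, and the model was tested on simulated data. Calls needed a change of over 2-fold with an adjusted p below 0.05, and members of gene lists the adjusted p alone. Unless another source is given, p-values here come from that fit. They rest on the spread within all 8 groups, starved phr1 and phr1 phl1 mutants included, not on the 6 wild type shoot arrays alone. In a fit of only those 6 arrays, 21 of the 138 named genes past the adjusted p lost the call. A single gene was assigned to 13513 probe sets, 503 had more than 1 and 8730 had no gene assigned, with symbols from the RefSeq gene table of TAIR10.1, and a gene with several was read from the one with the highest mean. Named were the 12 largest rises and falls with groups apart, the 6 largest organ differences each way and up to 6 members per list past the threshold with those going the other way. Members that did not pass, and organelle-encoded genes, were named after their values were seen. The members and lists were chosen with earlier results of these data known. Lists matched by symbol pattern or by name can hold unrelated genes. Probe sets for families of near-identical genes can cross-hybridise. Alternatives changed the arrays in the fit, filter, centring, variance model, weights, fold limit and replicates.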

Additional observations from a re-analysis of the deposited data

Results flagged for a closer look

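The genes below were singled out because the test of the difference between the shoot and root responses passed, among those chosen for the size of that difference. The log2 fold change in shoots minus that in roots was 5.72 for DFR, 5.46 for AT4G02360, 5.39 for JRG21, 5.38 for AT1G54020, 5.37 for AT4G14090 and 5.16 for AT4G17470. Among the falls it was -4.37 for AT5G16030, -3.67 for AT3G19850, -3.59 for AT1G62480, -3.58 for AT3G06070, -3.44 for AT4G36700 and -3.39 for EXPA8. WRKY47 was lower in shoots and higher in roots, a difference of -1.14 (adjusted p = 0.000217 from limma). Groups of 3 arrays were too small for a test of single outlying arrays.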

How the results depend on the processing

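Counts of upregulated, downregulated and organ-different probe sets were 907, 934 and 1143 with 1 probe set per gene (13350 tested), 3617, 4809 and 4209 at the adjusted p alone, and 658, 224 and 516 at more than 4-fold, limits that differ by construction. With any 1 array left out they ranged from 1801 to 1992, from 1582 to 1989 and from 2204 to 2594, the 1582 being without -Pi shoot replicate 2. With the replicate number as a block they were 1883, 1801 and 2403. Same-numbered shoot arrays correlated at 0.023, 0.009 and 0.051 after removal of group means, so that the numbers were not taken to pair the samples. Centred on array medians they were 2017, 1632 and 2401. The remaining alternatives stayed within 1.5 times of the reported counts. Of 138 named genes past the adjusted p, 27 lost the call in at least 1 alternative and none turned in direction while called. The fits without chloroplast-encoded probe sets and with only shoot arrays were chosen after seeing the data. The planned promoter motif count was not run, since no promoter sequence was used.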

Other observations

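Several families grouped by gene symbol were examined after their values had been seen, so they are given as descriptions beside the 15.9% of all probe sets that were higher and the 21.1% that were lower. All 4 measured methionine sulfoxide reductase B genes, which repair oxidised methionine, were higher (median log2 fold change 2.17). MSRB6 had 6.71, 8.22 and 7.01 with Pi and 10.85, 10.24 and 10.98 without (3.38), and MSRB5 6.34, 8.89 and 6.87 against 10.19, 10.11 and 10.31 (2.84). The groups were apart in both genes, with +Pi replicate 2 the highest fed array. Of 14 SWEET genes 6 were higher and 1 lower, led by SWEET13, a sucrose exporter gene, which went from 3.92, 5.18 and 3.39 to 8.53, 8.90 and 8.85 (4.59). TBL26 rose from 4.19, 6.78 and 4.60 to 10.31, 9.67 and 10.32 (4.91), while its family of 22 had a median of 0.02.

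Among genes with the symbols OTP and CRR, most of which belong to the pentatricopeptide repeat proteins that edit and process organelle transcripts, 9 of 13 were lower in shoots (median -0.75) and the root median was -0.05. OTP81 had 6.19, 5.77 and 6.09 with Pi and 4.48, 4.53 and 4.36 without (-1.56). RNA polymerase subunit genes were lower in 9 of 12 (median -0.76), NRPA2 of RNA polymerase I falling from 7.16, 7.34 and 6.97 to 5.98, 5.28 and 5.96 (-1.42). Tubulin genes were lower in 6 of 7 (median -0.47, 4 to 6 with any 1 shoot array left out), with TUB5 at 9.72, 9.59 and 9.94 against 8.17, 8.03 and 7.86 (-1.73). Of 40 AGAMOUS-like genes 3 were lower and the median was -0.02.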
